A study of Mus musculus with 9 samples.

Results

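The Foxf1 and Foxf2 forkhead gene clusters are 2 short stretches of the mouse genome, each holding a FOXF gene beside other forkhead genes. The members were chosen by name: Foxf1 (Foxf1a in the count table), the long non-coding RNA Fendrr (1110050K14Rik in the table), Foxc2 and Foxl1 on chromosome 8, and Foxf2, Foxq1 and Foxc1 on chromosome 13. These are 7 of the 19348 gene symbols measured, and all 7 passed the filter on low counts. RNA-seq read counts came from 9 libraries of lung cells of C57BL/6J mice, genotype Col1_GFP;Foxf1_tdTomato, in which green fluorescence reports type I collagen and red fluorescence reports Foxf1. DBL cells were positive for both (replicates 1, 3 and 4), TDonly cells only for Foxf1 (replicates 1, 2 and 3) and ColGFP cells only for collagen (replicates 1, 2 and 3). All 3 populations share the genotype, so none comes from mice without the reporters. The sources used here do not give the age and sex of the mice, the number of animals behind a library, the sort gates, or whether the Foxf1 reporter replaces an endogenous allele.

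Forkhead factors bind DNA through a winged-helix domain, and the FOXF pair acts mainly in mesenchyme and vessels next to epithelia that secrete hedgehog ligands. In mouse, Foxf1 is needed for the lung vasculature and for lung mesenchyme, and in humans loss of its copy or of its distant enhancer causes alveolar capillary dysplasia. Fendrr is read from the strand opposite Foxf1 and is needed in the mouse embryo for heart and body wall. Foxf2 is known from the mesenchyme of palate and gut and from brain pericytes, Foxc1 and Foxc2 from arteries, lymphatic vessels and their valves, Foxl1 from the mesenchymal cells under the gut epithelium, and Foxq1 from hair and gastric epithelium. Both clusters carry a FOXF gene and a FOXC gene in the same orientation.

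The chromosome 8 cluster covered 75.8 kb from Fendrr to Foxl1 (GRCm38, which is mm10, GENCODE M21). Fendrr lay on the minus strand at 121054882 to 121083110 and Foxf1 on the plus strand at 121084386 to 121088144, with 1276 bp between their start sites. Foxc2 (121116171 to 121118895) and Foxl1 (121127940 to 121130644) followed on the plus strand. The chromosome 13 cluster was wider, 256 kb, with all 3 genes on the plus strand: Foxq1 at 31556134 to 31560976, Foxf2 at 31625816 to 31631403 and Foxc1 at 31806633 to 31812476. The sources used here do not give the strand setting or the annotation of the counting. The gene model Gm20388 (plus strand, 119910841 to 124345722) spans the whole chromosome 8 cluster, and A530084C06Rik overlaps Foxq1 on the minus strand (31556134 to 31559333). Neither has a row of its own among the counts. Gm20388 shares the strand of Foxf1, Foxc2 and Foxl1, so strand would not separate its reads from theirs. Whether reads of overlapping genes on opposite strands were told apart is not known.

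**Figure D1:**
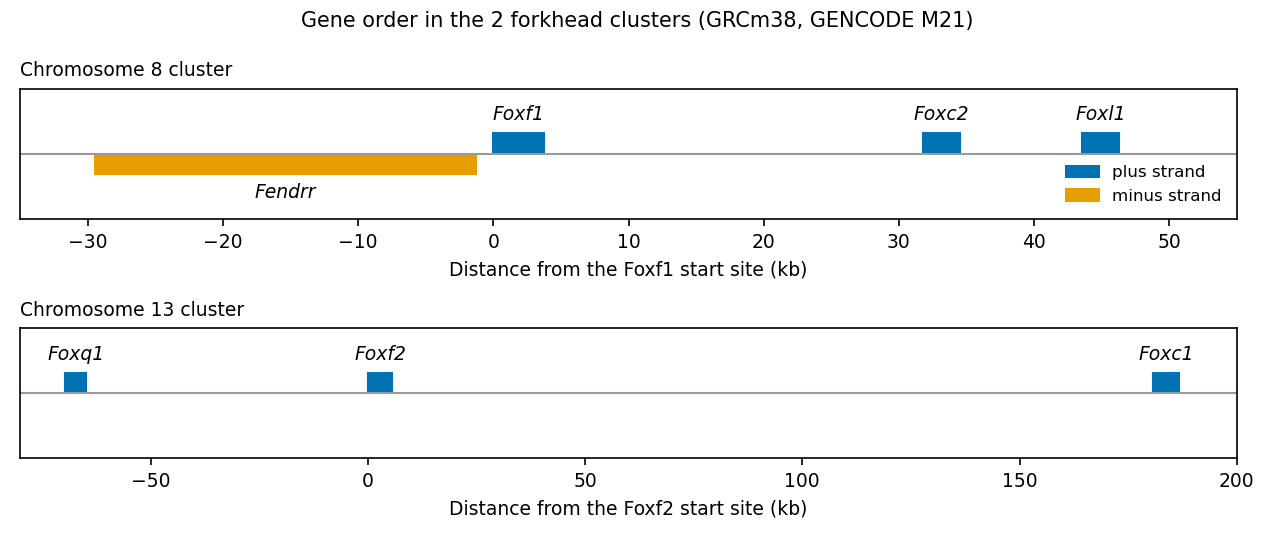
Position of the 7 genes in the 2 clusters, in kb from the Foxf1 start site (top) and the Foxf2 start site (bottom); blue boxes are plus-strand genes and the orange box is the minus-strand gene. Fendrr and Foxf1 start 1276 bp apart on opposite strands, and the chromosome 13 genes are spread over 256 kb.

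Upstream sequence is shown for Fendrr, because it lies between the start sites of the divergent pair whose transcripts were highest in the same population, and for Foxf2, the member that differed most between populations. Both are the 250 bases before the RefSeq start (GRCm38.p6), read in the direction of the gene. Fendrr comes from chr8:121083111-121083360 on the minus strand, with capitals marking the forkhead core motif GTAAACA. Foxf2 comes from chr13:31625566-31625815 on the plus strand, with capitals marking the 24 bases from the GENCODE start of the minus-strand RNA 1700018A04Rik to the base before Foxf2.
Fendrr: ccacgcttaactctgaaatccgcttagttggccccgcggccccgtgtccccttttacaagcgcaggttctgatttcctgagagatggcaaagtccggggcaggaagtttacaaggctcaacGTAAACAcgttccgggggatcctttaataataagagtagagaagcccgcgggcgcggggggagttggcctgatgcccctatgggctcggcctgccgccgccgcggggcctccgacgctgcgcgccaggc
Foxf2: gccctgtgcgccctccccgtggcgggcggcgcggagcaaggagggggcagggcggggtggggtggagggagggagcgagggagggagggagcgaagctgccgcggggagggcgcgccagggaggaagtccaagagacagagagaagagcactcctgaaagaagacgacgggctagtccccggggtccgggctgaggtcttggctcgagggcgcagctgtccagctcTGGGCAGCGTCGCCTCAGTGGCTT

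GTAAACA, searched on both strands, occurred once in the Fendrr window and not in the Foxf2 window, and 3.17% of 32851 promoter windows of this length held it. Neither window held the GLI motif GACCACCCA, the binding sequence of the hedgehog effectors, which 0.225% of windows held. The GC box GGGCGG occurred 2 times in the Foxf2 window and not in the Fendrr window (32.7% of windows). The windows had 62.0% (Fendrr) and 71.6% (Foxf2) G or C, with 23 and 21 CpG dinucleotides. A match is a description of the letters and no binding was measured.

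The libraries held 17820969 to 26147475 counts. In each population, replicate 1 stood apart from the others: pairs with replicate 1 differed by a chi-square per degree of freedom of 53.8 to 98.8 across genes, and the other pairs by 5.32 to 14.6. The replicate 1 libraries have lower sequencing core numbers than the 6 others, which form the second series below; no label calls this a batch. Endothelial marker sums did not overlap between any populations, and fibroblast marker sums overlapped between DBL and ColGFP and were lower in TDonly. The 10 endothelial markers summed to 3429 to 4257 CPM (counts scaled to the library total corrected by TMM factors) in DBL, 9793 to 10720 in TDonly and 633 to 898 in ColGFP, and the 10 fibroblast markers to 34030 to 44060, 1398 to 5486 and 20230 to 36490 CPM in the same order. Since no label ties replicates to separate animals, p-values measure the spread between libraries, which may be technical.

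Foxf1 was highest in TDonly, intermediate in DBL and lowest in ColGFP, and the libraries of no 2 populations overlapped. Its level was 113, 87.3 and 103 CPM in DBL, 279, 231 and 229 CPM in TDonly, and 61.9, 62.5 and 54.5 CPM in ColGFP. Cells sorted without the Foxf1 reporter still held Foxf1 transcript at 59.7 ± 4.47 CPM (SD, n = 3), and the fitted TDonly level was 4.13 times as high. The log2 fold change of Foxf1 was 0.76 ± 0.13 for DBL over ColGFP (± SE; edgeR quasi-likelihood test, adjusted p = 0.00329), -1.28 ± 0.13 for DBL over TDonly (adjusted p = 0.000123) and 2.05 ± 0.13 for TDonly over ColGFP (adjusted p = 2.22e-06). In the second series alone these were 0.72, -1.23 and 1.95, and between the replicate 1 libraries 0.87, -1.30 and 2.17. The cells were sorted on a Foxf1 reporter, so more Foxf1 in DBL and TDonly than in ColGFP follows from the sort. The p-values of those 2 comparisons are therefore no independent result for Foxf1. In sorted bulk cells a different share of Foxf1-expressing cells and a different amount of RNA per cell cannot be told apart.

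Fendrr had the same order of populations with a wider spread between replicates. It measured 141, 74.2 and 78.4 CPM in DBL, 305, 154 and 143 CPM in TDonly, and 34.0, 30.9 and 32.8 CPM in ColGFP. The replicate 1 libraries of DBL and TDonly were the highest of their populations, and the ColGFP libraries lay close together. The log2 fold changes were 1.59 ± 0.33 in DBL against ColGFP (adjusted p = 0.01001), -1.04 ± 0.32 in DBL against TDonly (adjusted p = 0.0341) and 2.63 ± 0.34 in TDonly against ColGFP (adjusted p = 0.000164). The second series alone gave 1.27, -0.92 and 2.20. The difference of DBL from TDonly missed the threshold without DBL replicate 3 or 4, TDonly replicate 1 or any 1 ColGFP library (adjusted p 0.0538 to 0.143), with the smallest change, -0.60, without TDonly replicate 1.

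Read per kilobase of exon, Fendrr stood at 0.904, 0.618 and 0.555 of the Foxf1 level in the DBL libraries, 0.795, 0.486 and 0.455 in TDonly and 0.399, 0.359 and 0.437 in ColGFP. The DBL ratios lay above all ColGFP ratios, as did the TDonly ratios, while DBL and TDonly overlapped. Replicate 1 had the highest ratio in DBL and in TDonly and the middle one in ColGFP.

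Foxf2, the closest relative of Foxf1, ran in the opposite order. It measured 24.6, 25.0 and 24.5 CPM in DBL, 4.29, 10.7 and 10.5 CPM in TDonly, and 80.0, 78.1 and 74.0 CPM in ColGFP. The DBL libraries lay close together (SD 0.301 CPM), and no 2 populations overlapped. Its log2 fold changes were -1.65 ± 0.26 in DBL against ColGFP (adjusted p = 0.00287), 1.55 ± 0.27 in DBL against TDonly (adjusted p = 0.00215) and -3.19 ± 0.28 in TDonly against ColGFP (adjusted p = 1.70e-05), with -1.60, 1.27 and -2.87 within the second series. The lowest Foxf2 library, TDonly replicate 1, was also the TDonly library with the lowest sum of the 10 fibroblast markers, 1398 CPM against 5201 and 5486 CPM in replicates 2 and 3, and with the highest Foxf1. The part of fibroblast RNA in the Foxf2 level of TDonly was not tested.

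**Figure D2:**
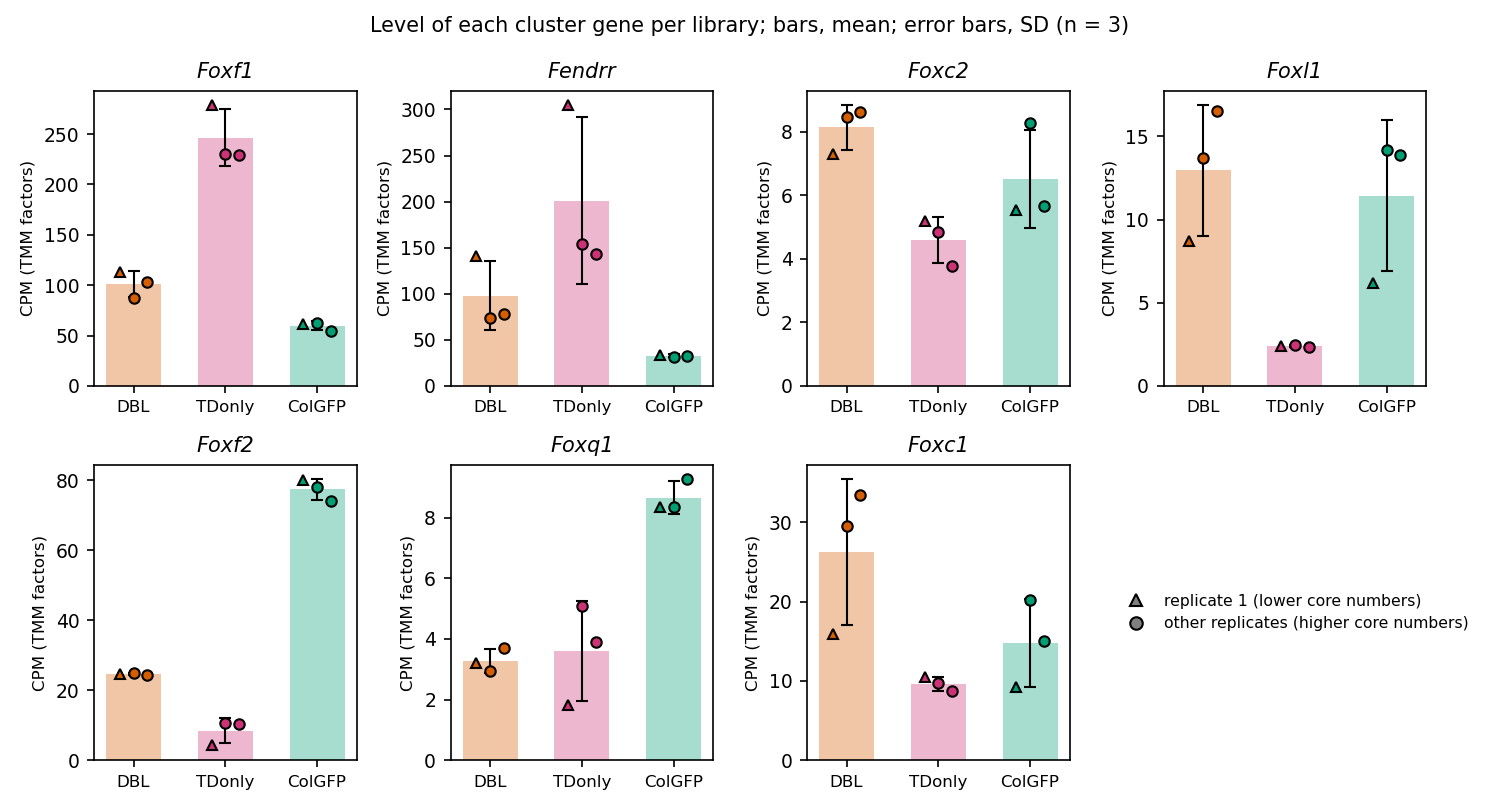
CPM of the 7 genes per library (points; triangles are replicate 1) with the mean (bar) and SD (error bar) of 3 libraries per population. Foxf1 and Fendrr are highest in TDonly, Foxf2 and Foxq1 in ColGFP, and the means of Foxc1, Foxc2 and Foxl1 are highest in DBL.

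Because both FOXF genes have nearly equal exon lengths (2415 bases in Foxf1, 2363 in Foxf2), their levels could be set side by side per kilobase (RPKM). Foxf1 made up 79.9 ± 2.30% of the summed FOXF level in DBL, 96.5 ± 1.70% in TDonly and 43.0 ± 1.03% in ColGFP (SD, n = 3), and Foxf2 exceeded Foxf1 in every ColGFP library and in no other. The mean log2 ratio of Foxf1 to Foxf2 was 1.99 ± 0.20 in DBL, 4.94 ± 0.91 in TDonly and -0.41 ± 0.06 in ColGFP. The ratio differed by 2.40 (log2) between DBL and ColGFP, by -2.95 between DBL and TDonly and by 5.35 between TDonly and ColGFP. Each exact two-sided permutation test gave p = 0.1, the smallest that 3 against 3 allows. The ratio contains Foxf1, so a higher ratio in DBL and TDonly than in ColGFP partly follows from the sort. The tests against ColGFP are therefore no independent result.

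The summed level of the pair differed less between DBL and ColGFP than that of either gene. Foxf1 plus Foxf2 came to 57.3, 46.75 and 52.9 RPKM in DBL, 117.5, 99.99 and 99.4 RPKM in TDonly, and 59.5, 59.0 and 53.9 RPKM in ColGFP. The DBL and ColGFP libraries overlapped, and the ratio of their means was 0.911 (exact permutation p = 0.2). TDonly libraries all lay higher, at 1.84 times the ColGFP mean (exact permutation p = 0.1), and the DBL mean was 0.495 times the TDonly mean (exact permutation p = 0.1). With a smallest possible p of 0.1, these tests cannot pass 0.05. The sum also contains Foxf1, so its comparisons with ColGFP are not independent of the sort.

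**Figure D3:**
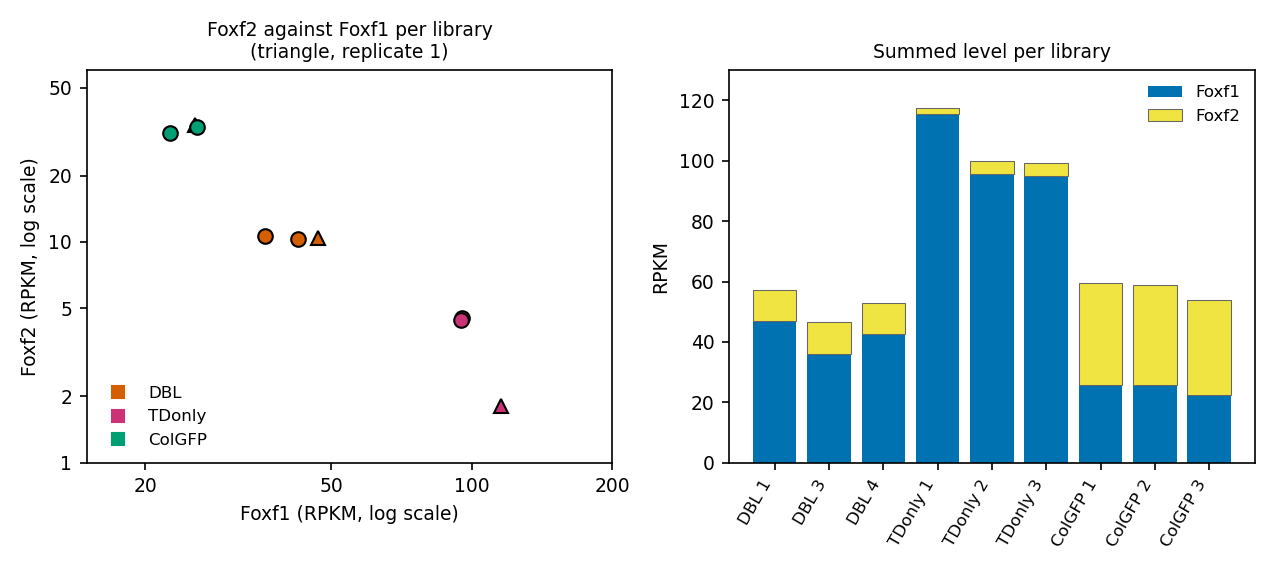
Left, Foxf2 against Foxf1 in RPKM on log axes, 1 point per library (triangles are replicate 1), with DBL between TDonly and ColGFP. Right, stacked RPKM of Foxf1 and Foxf2 per library; the sums are 46.75 to 57.3 in DBL, 99.4 to 117.5 in TDonly and 53.9 to 59.5 in ColGFP.

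The FOXC genes, 1 in each cluster, had the same order of populations as each other, with the highest mean in DBL and the lowest in TDonly. Foxc1, needed with Foxc2 for vessels, eye and skeleton, measured 15.9, 29.5 and 33.4 CPM in DBL, 10.4, 9.77 and 8.70 CPM in TDonly, and 9.16, 20.2 and 15.01 CPM in ColGFP. DBL lay above TDonly in every library (log2 fold change 1.45 ± 0.32, adjusted p = 0.00742). DBL and ColGFP overlapped, since DBL replicate 1 lay below ColGFP replicate 2 (0.83 ± 0.31, adjusted p = 0.1199). Within the second series Foxc1 was higher in DBL than in ColGFP (0.86, adjusted p = 0.000117) and lower in TDonly than in ColGFP (-0.95, adjusted p = 3.97e-05; over all libraries -0.61 ± 0.32, adjusted p = 0.146). It also passed for DBL against ColGFP without DBL replicate 1 (1.09, adjusted p = 0.0350) and for TDonly against ColGFP without ColGFP replicate 1 (-0.89, adjusted p = 0.0317).

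Foxc2, a factor of lymphatic valves, measured 7.32, 8.47 and 8.64 CPM in DBL, 5.18, 4.84 and 3.78 CPM in TDonly, and 5.54, 8.28 and 5.68 CPM in ColGFP. It was higher in DBL than in TDonly (log2 fold change 0.82 ± 0.20, adjusted p = 0.0133), a call lost without TDonly replicate 3 (0.70, adjusted p = 0.0512). The differences of DBL from ColGFP (0.33 ± 0.20, adjusted p = 0.349) and of TDonly from ColGFP (-0.49 ± 0.21, adjusted p = 0.0777) did not pass. TDonly against ColGFP passed within the second series (-0.71, adjusted p = 0.0120) and without ColGFP replicate 1 (-0.62, adjusted p = 0.0445). Of 8 lymphatic markers, 7 were in the table, and they summed to 316 to 414 CPM in DBL, 659 to 678 in TDonly and 136 to 178 in ColGFP. Prox1, which defines lymphatic endothelium, measured 3.21 ± 0.876 CPM in DBL, 6.51 ± 2.06 in TDonly and 3.41 ± 0.793 in ColGFP. In DBL against TDonly 5 of the 7 were lower and 1 higher, beside 12.6% and 17.3% of all tested genes. The higher one was Pdpn (1.54 ± 0.17, adjusted p = 0.000204). Its means of 92.0 ± 21.2 CPM in DBL, 31.6 ± 4.19 in TDonly and 66.3 ± 6.06 in ColGFP had the order of Foxc2. The means of Thy1 had this order as well (11.6 ± 4.58, 5.37 ± 2.26 and 7.45 ± 2.31 CPM). The part of lymphatic RNA in the Foxc2 level was not tested.

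Foxl1, the mesenchymal gene of the gut crypt niche, was low in TDonly and present in both collagen reporter populations. It measured 8.73, 13.7 and 16.5 CPM in DBL, 2.42, 2.48 and 2.33 CPM in TDonly, and 6.21, 14.2 and 13.9 CPM in ColGFP. Every DBL and ColGFP library lay above every TDonly library (log2 fold change 2.43 ± 0.35 in DBL against TDonly, adjusted p = 0.000688; -2.24 ± 0.35 in TDonly against ColGFP, adjusted p = 0.000537). DBL and ColGFP overlapped (0.18 ± 0.32, adjusted p = 0.771), and replicate 1 was the lowest library of each. Foxf2 and Foxl1 were thus both lower in TDonly than in either other population.

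Foxq1, a factor of epithelia, measured 3.20, 2.93 and 3.71 CPM in DBL, 1.83, 5.09 and 3.91 CPM in TDonly, and 8.36, 8.34 and 9.28 CPM in ColGFP. Its DBL libraries all lay below those of ColGFP (-1.40 ± 0.31 on the log2 scale, adjusted p = 0.0153), as did its TDonly libraries (-1.26 ± 0.31, adjusted p = 0.00833), while DBL and TDonly overlapped (-0.13 ± 0.32, adjusted p = 0.780). The DBL call was lost without DBL replicate 1 or 3 or ColGFP replicate 3 (adjusted p 0.0512 to 0.0619), with log2 fold changes of -1.38 to -1.32. The 10 epithelial markers, among them the surfactant genes, were not ordered as Foxq1: they summed to 7237 to 7997 CPM in DBL, 11350 to 14800 in TDonly and 4003 to 11980 in ColGFP. The 3 ColGFP libraries had like levels of Foxq1, with epithelial sums of 11980, 5934 and 4003 CPM in replicates 1, 2 and 3. The part of epithelial RNA in the Foxq1 level was not tested.

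**Figure D4:**
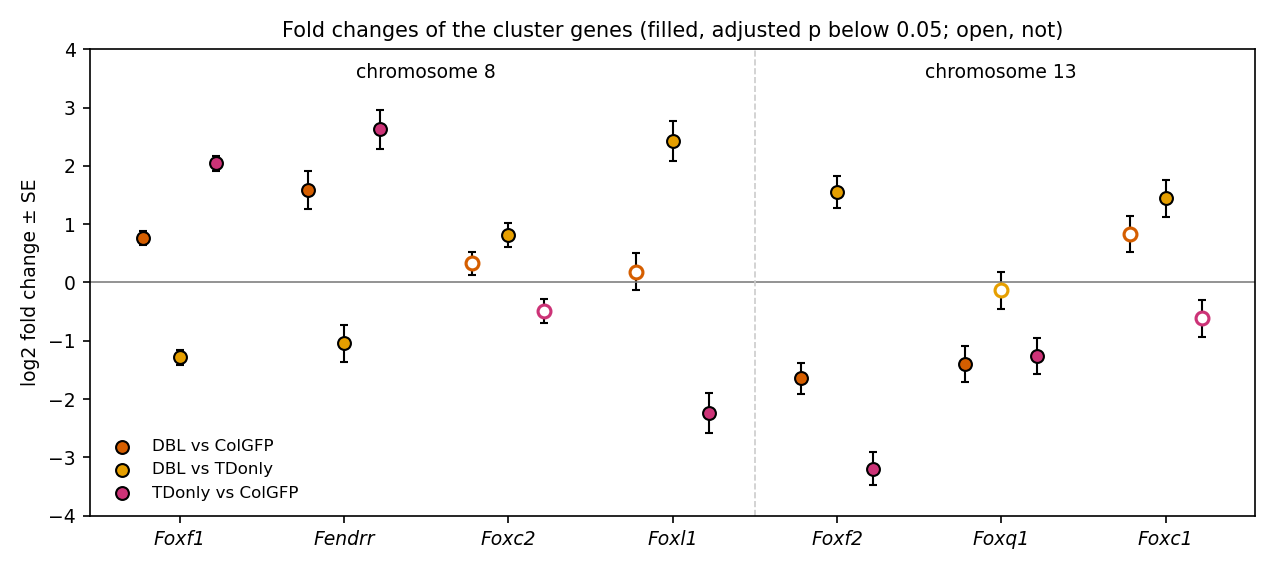
Log2 fold change with its standard error for each gene in the 3 comparisons; filled points have an adjusted p below 0.05 and open points do not. Foxf1 and Fendrr lie opposite to Foxf2 in every comparison, and Foxl1, Foxc1 and Foxc2 are above 0 in DBL against TDonly.

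Set against all genes tested, 4 of the 7 members passed in DBL against ColGFP, where 14.5% of 15550 genes did. Of the 4, 2 were higher and 2 lower, beside 8.04% of genes higher and 6.47% lower. Between DBL and TDonly 6 members passed, where 29.9% of genes did: 4 were higher (17.3% of genes) and 2 lower (12.6%). Between TDonly and ColGFP 5 members passed, where 45.5% of genes did: 2 were higher (21.6% of genes) and 3 lower (24.0%). Scaling by library totals gave 4363 genes higher and 2998 lower there, against 3355 and 3727. In the second series alone 5 members passed for DBL against ColGFP (28.9% of genes), 3 higher and 2 lower (16.3% and 12.6% of genes). For DBL against TDonly it was 6 (43.1%), 4 higher and 2 lower (23.6% and 19.4%), and for TDonly against ColGFP 7 (56.6%), 2 higher and 5 lower (26.8% and 29.8%). The 3 comparisons share libraries, so these counts are not independent of each other. Foxf1, on whose reporter the cells were sorted, is among the members called in all 3. Libraries did not overlap for 4 members between DBL and ColGFP, where this held for 33.3% of genes, for 6 between DBL and TDonly (47.0% of genes) and for 6 between TDonly and ColGFP (56.1%).

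Foxf1 and Fendrr passed both comparisons of DBL with DBL in between and the level rising toward TDonly, as 5.22% of genes did. Foxf2 passed both with the level falling toward TDonly, as 3.52% of genes did. For Foxf1 the rise over ColGFP follows from the sort. Over all libraries no member passed as above or below both single-reporter populations, a pattern of 0.868% and 0.206% of genes. Within the second series Foxc1 passed as above both by edgeR. Its log2 fold change was 0.86 over ColGFP (adjusted p = 0.000117) and 1.81 over TDonly (adjusted p = 1.44e-08). The share of all genes with that pattern in the second series was not computed.

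The place of DBL between the single-reporter means differed between the members. On the CPM scale, DBL stood 22.2% of the way from ColGFP to TDonly for Foxf1, 38.7% for Fendrr and 76.4% for Foxf2. The 10 endothelial markers stood at 29.7 to 34.9%, and the 6 smooth muscle markers, all lower in TDonly than in ColGFP as Foxf2 was, at 54.98 to 64.75%. These values were not tested against each other. Single fibroblast markers ranged from -152.5 to 82.6%. Foxq1 stood at 106.5%, beyond the TDonly mean, and Foxl1 at -17.0%, beyond the ColGFP mean, and both overlapped with that population. For Foxc1 and Foxc2, which did not pass between TDonly and ColGFP, no place was computed.

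Per kilobase of exon, the FOXF genes and Fendrr had the highest means of the 7 members in all 3 populations. In DBL the order was Foxf1 at 41.9 ± 5.41 RPKM, Fendrr at 29.4 ± 11.2, Foxf2 at 10.5 ± 0.127, then Foxl1, Foxc1 and Foxc2 at 4.80 ± 1.46, 4.50 ± 1.58 and 2.99 ± 0.264, and Foxq1 at 0.678 ± 0.0824. TDonly held Foxf1 at 102 ± 11.8 and Fendrr at 60.5 ± 27.3, then Foxf2 at 3.58 ± 1.53 and the others at 0.745 to 1.69. In ColGFP, Foxf2 led at 32.7 ± 1.29, ahead of Foxf1 at 24.7 ± 1.85 and Fendrr at 9.80 ± 0.467, with the others at 1.79 to 4.23. Foxf1 exceeded Fendrr within every library, though across libraries the values of the pair overlapped in DBL. In DBL the libraries of Foxl1 and Foxc1 overlapped as well. RefSeq has shorter models of Foxc1 and Foxq1 (3990 and 2807 bases, against 5844 and 4843 in GENCODE), which would put Foxc1 at 6.59 RPKM in DBL and Foxq1 at 3.09 in ColGFP.

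An RNA on the other strand beside Foxf2 was measured at very low level. 1700018A04Rik starts 24 bp from Foxf2 in GENCODE but 43.3 kb away in RefSeq, and which model was counted is not stated. It had 7, 2 and 10 counts in DBL, 0, 4 and 7 in TDonly, and 38, 12 and 38 in ColGFP. Every ColGFP library was above all others, as for Foxf2. It was lower in TDonly than in ColGFP by edgeR (-3.16 ± 0.80 on the log2 scale, adjusted p = 0.00968). By edgeR the difference of DBL from ColGFP did not pass over all libraries (-2.43 ± 0.75, adjusted p = 0.0599) and passed within the second series (-2.29, adjusted p = 0.0211).

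Of 12 other genes within 500 kb of a member, 9 were tested. By edgeR 0 passed between DBL and ColGFP (4 at an unadjusted p below 0.05; 1 lower by DESeq2 and 0 by limma-voom). Between DBL and TDonly 0 passed by edgeR, DESeq2 or limma-voom (1 at an unadjusted p below 0.05). In TDonly 3 were lower than in ColGFP by edgeR, 4 by DESeq2 and 5 by limma-voom. The 3 were 1700018A04Rik, the F-box gene Fbxo31 (-0.66 ± 0.15, adjusted p = 0.00497) and the leukocyte factor Irf8 (-1.32 ± 0.28, adjusted p = 0.00348). Mthfsd, which lies between Foxf1 and Foxc2, measured 14.6 ± 2.18 CPM in DBL, 14.6 ± 3.67 in TDonly and 12.1 ± 1.59 in ColGFP, with adjusted p = 0.425 in DBL against ColGFP and 0.275 in TDonly against ColGFP. By edgeR on the second series, 2 were lower in DBL than in ColGFP, 2 higher in DBL than in TDonly and 4 lower in TDonly than in ColGFP. Of all tested genes, 14.5%, 29.9% and 45.5% passed by edgeR in these 3 comparisons over all libraries. In the second series the shares were 28.9%, 43.1% and 56.6%.

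Hedgehog signalling is a known upstream input of FOXF genes in mouse foregut mesenchyme, and most genes of the pathway were lower in TDonly than in either other population. Of 13 tested pathway genes, 10 were higher in DBL than in TDonly and 1 lower (17.3% and 12.6% of all tested genes). Their median log2 fold change was 2.51, against -0.04 over all genes. In TDonly 2 were higher and 10 lower than in ColGFP (21.6% and 24.0% of all tested genes), with a median of -2.06, against 0.02. The 2 higher were the ligands Shh (2.43 ± 0.52, adjusted p = 0.00387 by edgeR) and Dhh (2.06 ± 0.20, adjusted p = 3.06e-05). Their levels in TDonly were 1.69 ± 0.507 and 10.3 ± 0.0735 CPM. The transcription factor and target Gli1 measured 92.7 ± 8.57 CPM in DBL, 8.89 ± 4.35 in TDonly and 61.7 ± 15.4 in ColGFP. The receptor Ptch1 measured 289 ± 63.3, 90.7 ± 12.8 and 278 ± 55.4 CPM in that order. Gli3 and the transducer Smo were higher in DBL than in TDonly by 2.12 ± 0.13 and 1.64 ± 0.16. Foxf1 was thus highest in the population with the lowest Gli1 and Ptch1, and Foxf2 was lowest there. Mesenchymal markers moved with these genes: all 10 fibroblast markers and all 6 smooth muscle markers were higher in DBL than in TDonly (median log2 fold changes 3.36 and 1.85) and lower in TDonly than in ColGFP (medians -2.96 and -2.82). Their part in the hedgehog differences was not tested.

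Between DBL and ColGFP, where Foxf1 and Foxf2 both differed, 2 of the 13 hedgehog genes passed, beside 14.5% of all tested genes. The median log2 fold change of the 13 was 0.01, against -0.00 over all genes. The antagonist Hhip was lower in DBL (-4.03 ± 0.47, adjusted p = 0.000468) and the ligand Dhh higher (0.95 ± 0.20, adjusted p = 0.0122). Gli1 (0.59 ± 0.33) and Ptch1 (0.06 ± 0.20) did not pass (adjusted p = 0.302 and 0.886). On the second series alone 8 of the 13 passed by edgeR, 4 higher in DBL and 4 lower, beside 28.9% of all tested genes. Gli1 was among the higher there (0.49, adjusted p = 0.000345) and Gli2 among the lower (-0.55, adjusted p = 0.000169). Ptch1 did not pass (0.09, adjusted p = 0.419).

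Genes reported as regulated by FOXF factors in mouse lung or gut fell into an endothelial and a mesenchymal group. Of 12, 8 were higher and 2 lower in DBL than in ColGFP (median log2 fold change 1.93), 4 were higher and 8 lower in DBL than in TDonly (median -1.36), and 8 were higher and 4 lower in TDonly than in ColGFP (median 3.30). The 8 endothelial ones (Kdr, Tek and Pecam1 are also on the endothelial marker list), such as the VEGF receptors Flt1 and Kdr, the angiopoietin receptor Tek and the BMP receptor Acvrl1, had the order of Foxf1. Acvrl1 measured 862 ± 5.13 CPM in DBL, 2225 ± 86.1 in TDonly and 260 ± 13.9 in ColGFP, and Flt1 262 ± 27.6, 732 ± 20.6 and 50.4 ± 7.16 CPM. The mesenchymal ones, Wnt2, Wnt5a, Bmp4 and Notch2, had means in the order of Foxf2, although Wnt5a and Notch2 did not pass between DBL and ColGFP over all libraries (adjusted p = 0.278 and 0.0808). Both passed within the second series (-0.46, adjusted p = 0.000729 for Wnt5a, and -0.50, adjusted p = 2.79e-05 for Notch2), where 8 of the 12 were higher and 4 lower in DBL than in ColGFP. Wnt2, a lung mesenchymal ligand, measured 17.3 ± 3.05 CPM in DBL, 7.08 ± 4.23 in TDonly and 57.4 ± 13.5 in ColGFP. Endothelial and fibroblast markers moved with the same populations, and their part in these differences was not tested. Of all tested genes, 14.5% passed in DBL against ColGFP (28.9% in the second series). Between DBL and TDonly the share was 29.9%, and between TDonly and ColGFP 45.5%.

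Of 5 vascular genes reported as regulated by FOXC factors in mouse, 2 were higher in DBL than in ColGFP (median log2 fold change 0.24). In DBL 1 was higher and 3 were lower than in TDonly (median -1.02). Between TDonly and ColGFP 4 were higher and 1 lower (median 1.05). Of all tested genes, 14.5%, 29.9% and 45.5% passed in these 3 comparisons. The Notch ligand Dll4 measured 102 ± 6.36 CPM in DBL, 259 ± 8.13 in TDonly and 21.2 ± 3.39 in ColGFP, the order of Foxf1 and not of Foxc1 or Foxc2. Hey2, a Notch target, was the 1 gene higher in DBL than in TDonly, at 8.73 ± 1.00 CPM in DBL, 4.79 ± 1.49 in TDonly and 7.41 ± 0.340 in ColGFP.

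The table holds 33 other forkhead genes, 23 of them tested. In DBL 1 was higher and 2 lower than in ColGFP, and 6 were higher and 3 lower than in TDonly. In TDonly 6 were higher and 6 lower than in ColGFP (medians of the 3 comparisons 0.22, -0.08 and 0.04). Of all tested genes, 14.5%, 29.9% and 45.5% passed in the same order. Foxp1, a widely expressed FOXP factor, had the order of Foxf1, at 223 ± 18.7 CPM in DBL, 432 ± 27.3 in TDonly and 139 ± 8.21 in ColGFP, and Foxp4 had the opposite order, at 50.8 ± 2.58, 30.8 ± 1.94 and 68.5 ± 6.66 CPM. Foxs1, a gene of perivascular cells, was higher in DBL than in TDonly (2.57 ± 0.52, adjusted p = 0.00467), as Foxl1 was. The second series alone gave 8 higher and 3 lower, 6 and 5, and 6 and 7 in the same order. There 28.9%, 43.1% and 56.6% of all tested genes passed.

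Other cell types varied beside the members. The 6 mesothelial markers summed to 548 to 632 CPM in DBL, 84.0 to 285 in TDonly and 119 to 174 in ColGFP. In DBL 5 were higher than in ColGFP, all but Wt1, and 5 were higher than in TDonly, all but Krt19. Of all tested genes, 8.04% and 17.3% were higher in these comparisons. The mean of Foxc1 was also highest in DBL. The 8 pericyte markers summed to 862 to 1150 CPM in DBL, 140 to 260 in TDonly and 790 to 1064 in ColGFP. By edgeR 5 of them were lower and 2 higher in TDonly than in ColGFP (24.0% and 21.6% of all tested genes). The 2 higher were Cox4i2 (4.85 ± 0.553 against 2.53 ± 0.969 CPM) and Higd1b (1.94 ± 0.266 against 0.730 ± 0.155 CPM). Rgs5 did not pass and also had its highest mean in TDonly (8.7 ± 0.477 CPM). The 6 smooth muscle markers summed to 525 to 773, 154 to 190 and 818 to 2060 CPM in DBL, TDonly and ColGFP. The 8 leukocyte markers summed to 1271 to 1446 CPM in DBL, 1945 to 2728 in TDonly and 885 to 2342 in ColGFP. Most of each sum was 1 gene, Lyz2, at 1319 ± 57.7 CPM in DBL, 2263 ± 333 in TDonly and 1368 ± 785 in ColGFP. Ptprc measured 22.9 ± 15.4, 56.1 ± 30.5 and 36.5 ± 5.03 CPM in the same order. The sums therefore describe mainly Lyz2. No marker in the table was at 0 in every library. The part of these cells in the levels of the members was not tested.

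Among the genes whose log2 CPM most resembled a FOXF gene over the 9 libraries, of 9237 named genes with at least 10 CPM in 3 libraries, were Hpcal1, C2cd2l, St5 and Git2 for Foxf1 (Pearson r 0.995 to 0.9955) and Slc7a10, Dennd4a, Spon1, Rasl12 and Gata5 for Foxf2 (r 0.998 to 0.999). Over the 6 libraries of the second series r was 0.993 to 0.998 and 0.997 to 0.9997. The points share their population and library, so r describes mainly the 3 population levels.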

How the data were processed

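The 9 sorted-cell RNA-seq libraries, 3 per population, were grouped by sample title and matched to table columns through the sequencing core number, which left out 3 columns with no matching label. The submitters' processing notes name cutadapt, TopHat, HTSeq and the build mm10, with no versions. The deposited table holds raw counts per gene symbol, not normalised. Ribosomal RNA was depleted according to the series design; the labels' protocols describe RNA of frozen lungs, and how that applies to sorted cells is not stated. Libraries held 17820969 to 26147475 counts, and fewer counts give wider spread for the low genes (Foxq1, Foxc2, Foxl1); no interval was computed for single libraries.

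Genes were kept by filterByExpr (minimum count 10; 15550 genes). A quasi-likelihood model with 1 mean per population was fitted (edgeR 4.0.16, limma 3.58.1, R 4.3.3; TMM factors; 6 residual and 3.42 prior degrees of freedom), with two-sided tests and Benjamini-Hochberg adjustment across the genes kept, at 0.05. The SE is the log2 fold change divided by the square root of F. RPKM is TMM CPM per kilobase of GENCODE exon union. In simulated DBL against ColGFP data (15366 genes), 69% of genes changed 2-fold and 97% changed 4-fold were recovered, with 12 false calls. The simulated libraries were independent draws without the differences of the replicate 1 libraries, so these figures may not hold for the real ones. Symbols matched the annotation for 17501 genes, 1701 through a synonym. Promoter windows are from RefSeq; of the members, Fendrr, Foxf2 and Foxc1 matched. Alternatives were other scalings and filters, DESeq2 1.42.0, limma-voom, blocks, the second series alone and leaving out each library.

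Members and gene lists were chosen with earlier results of these data known. The lists were hedgehog genes, FOXF-regulated and FOXC-regulated genes, other forkhead genes and neighbours. Marker lists covered endothelium, lymphatics, fibroblasts, pericytes, smooth muscle, mesothelium, epithelium and leukocytes. Named were all members, up to 4 genes per list and comparison by adjusted p, genes whose values a statement turns on (chosen after their values were seen, such as Mthfsd, Ptch1, Wnt2, Prox1, Pdpn, Thy1 and Hey2), and the 5 genes most alike each FOXF gene, of which 1 is not reported here. The Fendrr to Foxf1 ratio was also chosen after the values were seen.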

Additional observations from a re-analysis of the deposited data

How the results depend on the processing

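Under the 12 other settings that kept all or the second-series libraries, Foxf1 and Foxf2 kept their direction and their side of the threshold in all 3 comparisons: the log2 fold changes of Foxf1 were 0.72 to 0.82 (DBL against ColGFP), -1.37 to -1.23 (DBL against TDonly) and 1.95 to 2.19 (TDonly against ColGFP), and those of Foxf2 were -1.68 to -1.55, 1.27 to 1.70 and -3.32 to -2.87. Leaving out each library gave 0.67 to 0.86, -1.38 to -1.18 and 1.95 to 2.10 for Foxf1, and -1.68 to -1.60, 1.23 to 1.75 and -3.39 to -2.87 for Foxf2, and 3 to 4, 5 to 6 and 5 to 7 members called. The replicate numbers were not taken as pairs in the main fit. Deviations from the population means correlated at 0.0156 to 0.527 between same-numbered libraries of different populations. Between differently numbered libraries of different populations the correlations were -0.424 to 0.340. With the replicate number as a block, Foxf1 was 0.73, -1.31 and 2.04 and Foxf2 -1.55, 1.70 and -3.26. The number of members called was 3, 6 and 5 over the 3 comparisons. Foxq1 in DBL against ColGFP then missed the threshold (-1.37, adjusted p = 0.0703). Only DBL has a replicate 4, so that block leaves this library without a partner. With runs of 3 libraries of neighbouring core numbers as the factor instead, Foxq1 passed the threshold (-1.40, adjusted p = 0.0140). Foxc1 in DBL against ColGFP passed with the series as a factor (0.83, adjusted p = 0.0385), and Fendrr in DBL against TDonly missed it in a fit to those populations alone (-1.003, adjusted p = 0.0706). Signs that turned were those of 2 results that did not pass: Foxl1 in DBL against ColGFP (-0.093 without ColGFP replicate 1, up to 0.40 without DBL replicate 1) and Foxq1 in DBL against TDonly (0.20 without TDonly replicate 2, down to -0.45 without TDonly replicate 1). A filter of 10 CPM removed Foxc2 and Foxq1. Over all genes, calls between DBL and ColGFP were 2256, against 4512 within the second series, 1478 without ColGFP replicate 2 and 1468 without ColGFP replicate 3. Scaling by library totals split the TDonly against ColGFP calls into 4363 higher and 2998 lower, against 3355 and 3727, and moved the median log2 fold change of all genes to 0.16, against 0.02, and for DBL against TDonly to -0.13, against -0.04. The causes were not tested.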
